A study of Mus musculus with 7 samples.

Results

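The 9 genes described here encode the phagocyte NADPH oxidase and part of the defence against the oxidants it releases. They were taken by symbol from a deposited expression table of 40743 genes, and each of the symbols Cyba, Cybb, Ncf1, Ncf4, Rac2, Sod2, Nqo1, Prdx1 and Txnrd1 was found once. The 5 oxidase members are Cyba, Cybb, Ncf1, Ncf4 and Rac2, and the 4 defence members are Sod2, Nqo1, Prdx1 and Txnrd1.

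RNA sequencing was performed on retinal microglia (rMG), the resident macrophages of the retina, from mice labelled Irf8 KO. All mice carried Irf8-/- and Cx3cr1GFP/+, in which one copy of the fractalkine receptor gene is replaced by a green fluorescent reporter, on a C57BL/6J background without the Crb1 mutation. The 3 unlasered libraries came from untreated eyes, and the 4 lasered libraries came from eyes taken 7 days after laser photocoagulation, which induces choroidal neovascularisation (CNV). Wild-type libraries were not analysed here, so no value below is an effect of Irf8. Each library was a pool of several adult mice, and cells were sorted by flow cytometry as CD45low CD11b+ Cx3cr1-GFP+ Ly6C- Ly6G-. In the lasered group only the central retina was used, so laser treatment and retinal region cannot be told apart.

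The phagocyte NADPH oxidase moves electrons from NADPH across a membrane to oxygen and so makes superoxide. Cybb (gp91phox) and Cyba (p22phox) form its membrane core, which stays idle until subunits such as Ncf1 (p47phox) and Ncf4 (p40phox) and a GTP-bound Rac protein join it from the cytosol. Superoxide dismutases turn superoxide into hydrogen peroxide, peroxiredoxins and thioredoxin reductases help to remove the peroxide, and the transcription factor NRF2 raises many of these defence genes, of which Nqo1 is a standard marker.

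Library depth ranged from 20427558 to 36022954 reads in the unlasered and from 37133297 to 45919042 in the lasered group, so every lasered library was deeper. Values are given as CPM, the reads of a gene scaled to a common library total, and 3 reads corresponded to at most 0.147 CPM. The libraries labelled Irf8 KO held 489 to 530 CPM (unlasered) and 463 to 582 CPM (lasered) in the Irf8 entry, which is shared with the overlapping Gm20388 and counts the whole gene, including any part a deletion leaves. Summed CPM of 10 microglia markers ranged from 23410 to 27678 in the unlasered and from 22504 to 28789 in the lasered group. Of 15 rod photoreceptor markers, 14 were lower in the lasered group, and their sum fell from a range of 2251 to 20191 CPM to a range of 321 to 1020 CPM.

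Rac2 was the one member that passed the test for a change after laser treatment, and it rose 1.95-fold. The other 8 members, among them the catalytic subunit Cybb and all 4 defence genes, did not pass the test. A gene was called changed at an adjusted p under 0.05 in limma with Benjamini-Hochberg adjustment over 17496 tested genes, of which 1213 (6.93%) were called, 676 of them higher (3.86%) and 537 lower (3.07%) in the lasered group. All 9 members were tested, of which 1 was higher and 0 were lower. At an unadjusted p under 0.05 in limma the count of members was likewise 1 of 9, Rac2, beside 3963 of all 17496 tested genes. The median log2 fold change, on log2(CPM + 1) and lasered minus unlasered throughout, was 0.05 over the 9 members and -0.01 over all tested genes.

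**Figure D1:**
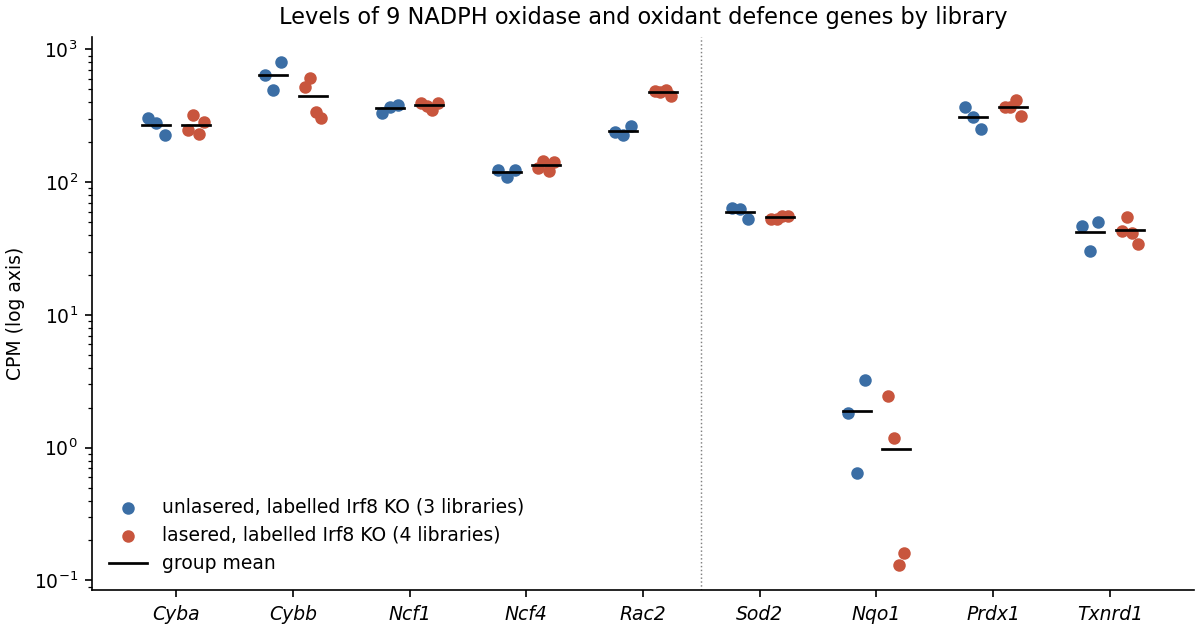
CPM on a log axis for each of the 9 genes, with one point per library and a black line at the group mean, with oxidase members left and defence members right of the dotted line. The 4 lasered libraries lie above the 3 unlasered ones for Rac2, whereas the groups overlap for the other 8 genes.

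The membrane subunits differed from each other in how much they varied between libraries. Cyba (ENSMUSG00000006519, GRCm38 chr8:122424776-122432930, minus strand), which stabilises the catalytic subunit, was at 307, 277 and 228 CPM in the unlasered and at 249, 318, 229 and 282 CPM in the lasered libraries. The groups overlapped over almost their whole range, with means of 270.5 ± 39.7 (SD, n = 3) and 269.6 ± 39.2 CPM (SD, n = 4). The log2 fold change was -0.01 (95% interval -0.35 to 0.34), which bounds a change in Cyba in either direction at 0.784-fold to 1.27-fold. In bulk RNA, fewer cells of a type and less RNA per cell cannot be told apart, for Cyba as for every gene below.

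Cybb (ENSMUSG00000015340, GRCm38 chrX:9435252-9487771, minus strand) encodes the subunit that carries the electrons. Its promoter is shown because it holds 3 copies of the core of the interferon-stimulated response element (ISRE), a sequence bound by factors of the IRF family, to which the product of Irf8, the gene deleted in these mice by their label, belongs. Of 9 RefSeq promoters (GRCm38.p6) matched to 7 of the 9 members, those of Cybb and Ncf1 held the core GAAANNGAA on either strand, which 8.56% of 32851 promoters of the same length hold. The 250 bases before the RefSeq start of Cybb, at chrX:9469325-9469574 on the minus strand, follow with the matches in capitals, the first 2 of which match on the opposite strand.
Cybb: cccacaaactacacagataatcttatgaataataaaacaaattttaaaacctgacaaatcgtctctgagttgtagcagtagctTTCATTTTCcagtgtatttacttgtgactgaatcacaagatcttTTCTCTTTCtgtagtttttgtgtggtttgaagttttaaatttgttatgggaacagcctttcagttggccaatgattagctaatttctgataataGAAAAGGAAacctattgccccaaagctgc
A match is a run of letters and shows no binding. The Cybb promoter also held the ETS-IRF composite GGAANNGAA (8.24% of promoters) once, after the start, and none of the 7 matched members held the ETS site GAGGAAGT (3.20% of promoters), which the microglial factor PU.1 can bind. The promoters of Rac2 and Ncf4 were not analysed here.

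Cybb was at 639, 498 and 806 CPM in the unlasered libraries and at 525, 604, 338 and 302 CPM in the lasered libraries. The lasered libraries fell into a pair within the unlasered range (replicates 1 and 2) and a pair below it (replicates 3 and 4). The group means were 648 ± 154 (SD, n = 3) and 442 ± 146 CPM (SD, n = 4), and the log2 fold change of -0.58 (SE 0.26, 95% interval -1.17 to 0.01) did not pass the test (adjusted p = 0.227, limma with Benjamini-Hochberg adjustment). Leaving out any 1 library gave values from -0.76 to -0.41, none past the threshold.

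The same pairs of lasered libraries stood apart in marker genes of other leukocytes. The summed level of 6 dendritic cell markers was 126 and 132 CPM in lasered replicates 1 and 2 and 34.1 and 31.0 CPM in replicates 3 and 4, against 18.3 to 40.8 CPM in the unlasered libraries. Ccr7 was the largest part in lasered replicates 1 and 2, at 74.8 and 68.5 CPM, against 5.34 and 3.10 CPM in replicates 3 and 4. Flt3 (15.5, 27.5, 1.74 and 3.42 CPM) and Cd209a (7.61, 8.93, 2.87 and 0.24 CPM) split likewise at lower levels. Zbtb46 differed little (26.3, 25.5, 23.5 and 23.5 CPM), and Xcr1 and Clec9a reached at most 1.54 and 0.245 CPM in the lasered libraries. For 8 monocyte markers the sums were 159, 208, 38.3 and 13.3 CPM in lasered replicates 1 to 4 and 28.6 to 88.9 CPM in the unlasered libraries. Ccr2 was the largest part in lasered replicates 1 and 2, at 81.5 and 128 CPM, against 19.7 and 7.57 CPM in replicates 3 and 4. The other monocyte markers were also higher in the first pair than in the second, with Ly6c2 at most 0.89 CPM. No marker of the dendritic cell and monocyte lists passed the test, and no marker of either list was at or under 3 reads in all 7 libraries. In the unlasered group Cybb and the dendritic cell and monocyte sums had the same order, lowest in replicate 2 and highest in replicate 3. The part of these cells in the level of Cybb was not tested.

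**Figure D2:**
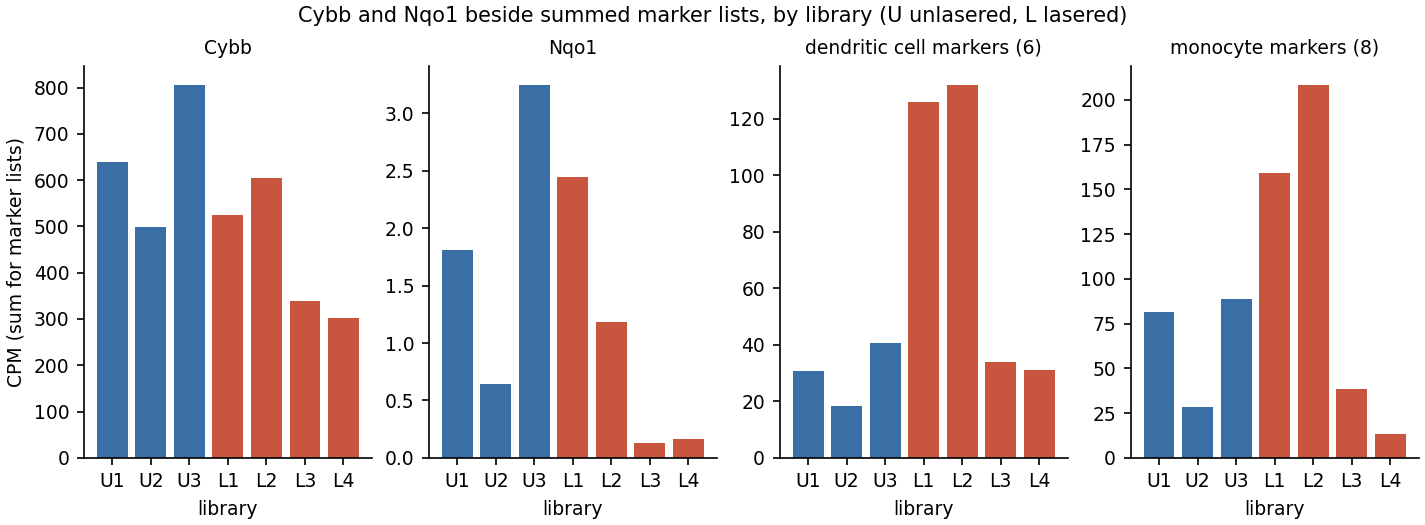
Bars give CPM of Cybb and Nqo1 and the summed CPM of 6 dendritic cell and 8 monocyte markers in each library (U unlasered, L lasered, numbered by replicate; each axis starts at 0). In the lasered group all 4 quantities are higher in L1 and L2 than in L3 and L4, and in the unlasered group all 4 are lowest in U2 and highest in U3. The neutrophil and lymphocyte sums, not drawn, do not split in this way.

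By a fixed measure of likeness, the root mean square difference of centred log2 values over the 7 libraries, the genes closest to Cybb among 10287 compared were Smpdl3a (0.149), Tia1 (0.169) and Hs3st3a1 (0.196). None of these 3 passed the test between groups. Smpdl3a, for example, was at 127, 78.0 and 142 CPM in the unlasered and 102, 133, 58.6 and 60.3 CPM in the lasered libraries, with the same split into replicates 1 and 2 against 3 and 4.

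Of the cytosolic subunits, Ncf1 and Ncf4 did not pass the test, whereas Rac2 rose. Ncf1 (ENSMUSG00000015950, GRCm38 chr5:134220053-134229625, minus strand) organises the assembly of the oxidase. Its promoter is shown for its single ISRE core, in capitals, within 49 bases at chr5:134229679-134229727 on the minus strand, with the match starting 82 bases before the RefSeq start.
Ncf1: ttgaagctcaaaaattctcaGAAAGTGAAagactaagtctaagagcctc
Ncf1 was at 334, 371 and 380 CPM in the unlasered and at 397, 374, 353 and 397 CPM in the lasered libraries, and the groups overlapped. Its log2 fold change was 0.07 (95% interval -0.17 to 0.32; adjusted p = 0.746, limma with Benjamini-Hochberg adjustment). Exons of Ncf1 overlap those of Gtf2ird2 on the other strand, and the libraries did not mark strand, so reads of these genes in the shared part cannot be told apart.

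Ncf4 (ENSMUSG00000071715, GRCm38 chr15:78244801-78262580, plus strand) binds a membrane lipid of phagosomes and sustains the oxidase there. It was at 123, 109 and 124 CPM in the unlasered and at 129, 144, 122 and 143 CPM in the lasered libraries. The lowest lasered library lay inside the unlasered range, and the log2 fold change of 0.18 (95% interval -0.09 to 0.45) did not pass the test (adjusted p = 0.419, limma with Benjamini-Hochberg adjustment).

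Rac2 (ENSMUSG00000033220, GRCm38 chr15:78559167-78572783, minus strand) is the Rac GTPase of blood-forming lineages and lies 297 kilobases beyond Ncf4 on the same chromosome. It was at 239, 228 and 267 CPM in the unlasered libraries and at 489, 474, 499 and 448 CPM in the lasered libraries. Every lasered library lay far above every unlasered one, and the spread within each group was small beside the gap, at 244 ± 20.4 (SD, n = 3) and 478 ± 22.0 CPM (SD, n = 4). The log2 fold change was 0.97 (SE 0.11, 95% interval 0.72 to 1.21; adjusted p = 0.00461, limma with Benjamini-Hochberg adjustment), which is 1.95-fold on the CPM + 1 scale (95% interval 1.65 to 2.31). It ranked at place 32 of the 17496 tested genes by p.

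Rac2 was the only one of the 9 members whose groups did not overlap, beside 21.0% of all tested genes (10.4% with the lasered libraries above). Leaving out any 1 library kept its adjusted p between 0.00551 and 0.0231. The summed dendritic cell and monocyte markers given above were highest in lasered replicates 1 and 2. Rac2 was at 489 and 474 CPM in these 2 libraries and at 499 and 448 CPM in lasered replicates 3 and 4. Of 11 neutrophil markers, Mmp8 and Cxcr2 passed the test and were higher in the lasered group, with summed levels of the list from 0.85 to 11.8 CPM in the unlasered and from 2.69 to 19.1 CPM in the lasered libraries. Of the other neutrophil markers, Ngp, Mpo, Retnlg and Ly6g were at 3 reads or fewer in all 7 libraries, whereas S100a8 reached 7.20 CPM in the unlasered and 6.86 CPM in the lasered group, S100a9 3.48 and 1.18 CPM, and Camp, Ltf and Elane at most 0.61 CPM. Rod markers, which fell in the lasered group, moved opposite to Rac2, and the part of these lists in its level was not tested.

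The rise of Rac2 changed its proportion to the other subunits. Divided by exonic length, Rac2 stood at 0.523 to 0.562 of the level of Rac1, its broadly expressed relative that can also serve the oxidase, in the unlasered libraries. In the lasered libraries the ratio was 0.980 to 1.03. Against Ncf1 the ratio went from 0.723 to 0.845 in the unlasered to 1.33 to 1.67 in the lasered libraries, and against Ncf4 from 1.26 to 1.41 to 2.05 to 2.65. Against Cyba it went from 0.261 to 0.393 to 0.499 to 0.729, so that none of these 4 ratios overlapped between groups. The ratios were chosen after the values were seen, all 4 share Rac2, and they carry no test. Exons of Rac1 share 2309 bases with the overlapping gene Daglb, which limits its own level. The ratio of Cybb to Cyba overlapped, at 0.322 to 0.632 and 0.192 to 0.377.

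**Figure D3:**
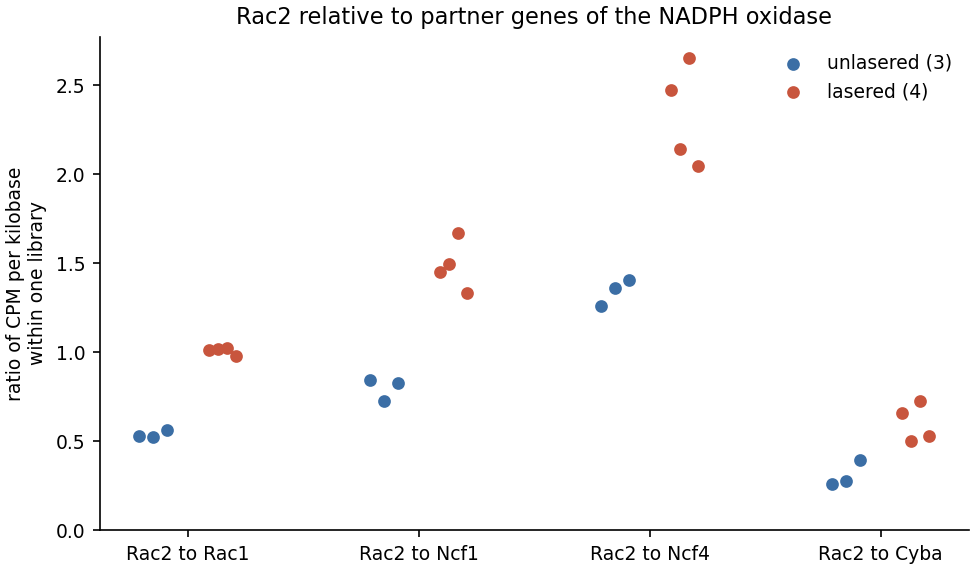
Ratio of CPM per kilobase of exon of Rac2 to 4 partner genes within one library, with one point per library and an axis from 0. For each partner the 4 lasered libraries lie above the 3 unlasered ones, and for Rac1 the values move from 0.523 to 0.562 up to 0.980 to 1.03.

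The genes whose pattern over the 7 libraries was most like that of Rac2 were Gm6450, a processed pseudogene (0.109), Pgap2 (0.111) and Ppfia4 (0.116), by the same measure of likeness. Ppfia4, for example, was at 120, 113 and 136 CPM in the unlasered and at 232, 256, 222 and 262 CPM in the lasered libraries. Since the measure follows the difference between groups, all 3 were also called higher.

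Summed over the 5 oxidase members, the libraries held 1483 to 1805 CPM in the unlasered and 1540 to 1915 CPM in the lasered group, which overlapped. Without Rac2 the sums were 1256 to 1537 and 1042 to 1440 CPM, which also overlapped.

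Other genes of the oxidase gave no call. Of 17 listed genes, 10 were tested, 0 were called by limma and 0 had an unadjusted p under 0.05, with a median log2 fold change of 0.03. The highest by CPM were Rac1 and Vav1, an exchange factor that loads Rac proteins with GTP. Rac1 was at 630 to 689 CPM in the unlasered and 663 to 704 CPM in the lasered libraries (log2 fold change 0.06, 95% interval -0.16 to 0.28). Vav1 was at 398 to 540 and 485 to 535 CPM (log2 fold change 0.09, 95% interval -0.20 to 0.38).

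Of the defence members, Sod2 (ENSMUSG00000006818, GRCm38 chr17:13006846-13040063, plus strand), the superoxide dismutase of mitochondria, was at 64.2, 62.9 and 52.7 CPM in the unlasered and at 52.6, 53.0, 55.9 and 55.7 CPM in the lasered libraries. The lasered libraries lay close together at the low end of the unlasered range. The log2 fold change was -0.14 (95% interval -0.42 to 0.15; adjusted p = 0.584, limma with Benjamini-Hochberg adjustment).

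Nqo1 (ENSMUSG00000003849, GRCm38 chr8:107388225-107403206, minus strand), which reduces quinones, was the scarcest member. It was at 1.81, 0.64 and 3.25 CPM in the unlasered and at 2.45, 1.18, 0.13 and 0.16 CPM in the lasered libraries. Lasered replicates 3 and 4 held 6 reads each, against 22 to 117 reads in the unlasered libraries, and they were again the low pair in which Cybb was low. The log2 fold change of -0.61 (95% interval -1.62 to 0.41) did not pass the test (adjusted p = 0.476, limma with Benjamini-Hochberg adjustment), and at these levels it depended on the pseudocount, with -1.34 at 0.1 CPM.

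Prdx1 and Txnrd1 act in the same chain, in which Prdx1 reduces peroxide and Txnrd1 passes electrons from NADPH to thioredoxin, the donor of Prdx1. Their promoters are shown because, of the 7 members with a matched promoter, they held the core of the antioxidant response element, TGACNNNGC, the sequence NRF2 binds, which 12.4% of the 32851 promoters hold on either strand. Both matches, in capitals, read on the opposite strand. The 49 bases for Prdx1 are at chr4:116685446-116685494 and those for Txnrd1 at chr10:82859094-82859142, both on the plus strand of GRCm38.p6. The match starts 133 bases before the RefSeq start for Prdx1, and 92 bases before one of 3 starts for Txnrd1. Nqo1 held no match from 250 bases before to 50 after its start, and bases beyond this window were not searched for any member.
Prdx1: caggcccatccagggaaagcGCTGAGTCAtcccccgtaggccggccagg
Txnrd1: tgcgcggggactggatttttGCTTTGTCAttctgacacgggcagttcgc

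Prdx1 (ENSMUSG00000028691, GRCm38 chr4:116685544-116700822, plus strand) was at 368, 310 and 253 CPM in the unlasered and at 368, 371, 418 and 318 CPM in the lasered libraries. The lowest value of both groups was in an unlasered library and the highest in a lasered one, with overlap between them. The log2 fold change was 0.26 (95% interval -0.09 to 0.60; adjusted p = 0.363, limma with Benjamini-Hochberg adjustment).

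Prdx1 was also the only member with near-identical copies, taken as at least 90% identity over at least 300 bases of transcript. These were the processed pseudogenes Gm21399 (98.3% over 597 bases), Gm7204 (97.5% over 597 bases) and Gm15974 (90.9% over 538 bases). Gm21399 stood at 49.5% to 53.5% of the Prdx1 value in every library, and Gm7204 at 20.4% to 22.1%. Gm15974 stood at 1.02% to 1.32%. Prdx1 itself made up 56.6% to 58.5% of the sum in both groups. Reads of such near-identical transcripts cannot be assigned to one of them with certainty, so the level of Prdx1 is uncertain. The sum was 540 ± 105 CPM in the unlasered (SD, n = 3) and 642 ± 70.8 CPM in the lasered group (SD, n = 4), with none of the copies called.

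**Figure D4:**
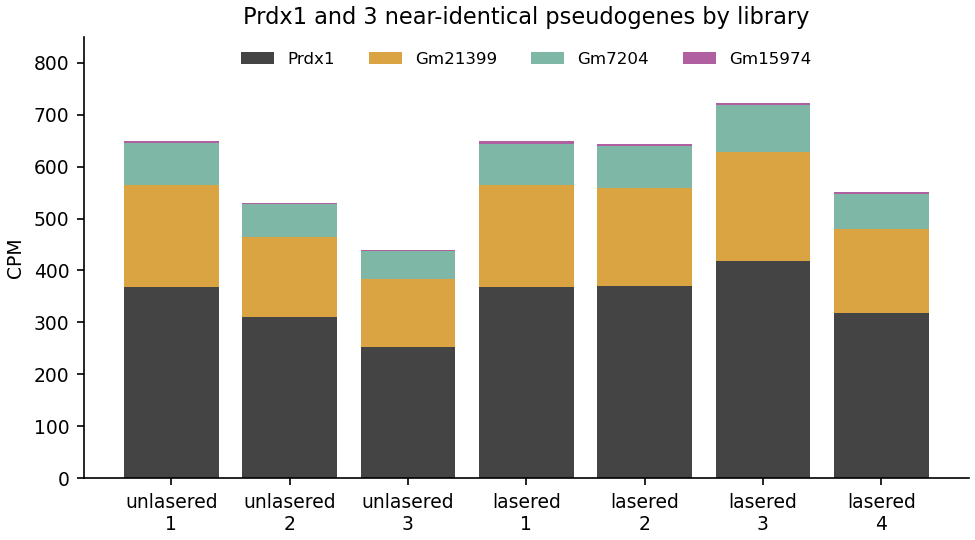
Stacked bars give CPM of Prdx1 and of 3 processed pseudogenes nearly identical to it in each library, on an axis from 0. The share of Prdx1 stays at 56.6% to 58.5% of the stack while the height of the stack ranges from 440.0 to 723 CPM.

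Txnrd1 (ENSMUSG00000020250, GRCm38 chr10:82833951-82897712, plus strand) was at 46.6, 30.3 and 50.3 CPM in the unlasered and at 43.1, 55.0, 41.8 and 34.3 CPM in the lasered libraries. The groups overlapped, and the log2 fold change of 0.05 (95% interval -0.44 to 0.54; adjusted p = 0.918, limma with Benjamini-Hochberg adjustment) turned negative without unlasered replicate 2 (-0.17) or lasered replicate 2 (-0.07). A joint entry of Txnrd1 with Eid3, which lies within its span, held at most 0.40 CPM. Over the 4 defence members the sums were 359 to 480 CPM in the unlasered and 408 to 515 CPM in the lasered libraries, which overlapped.

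**Figure D5:**
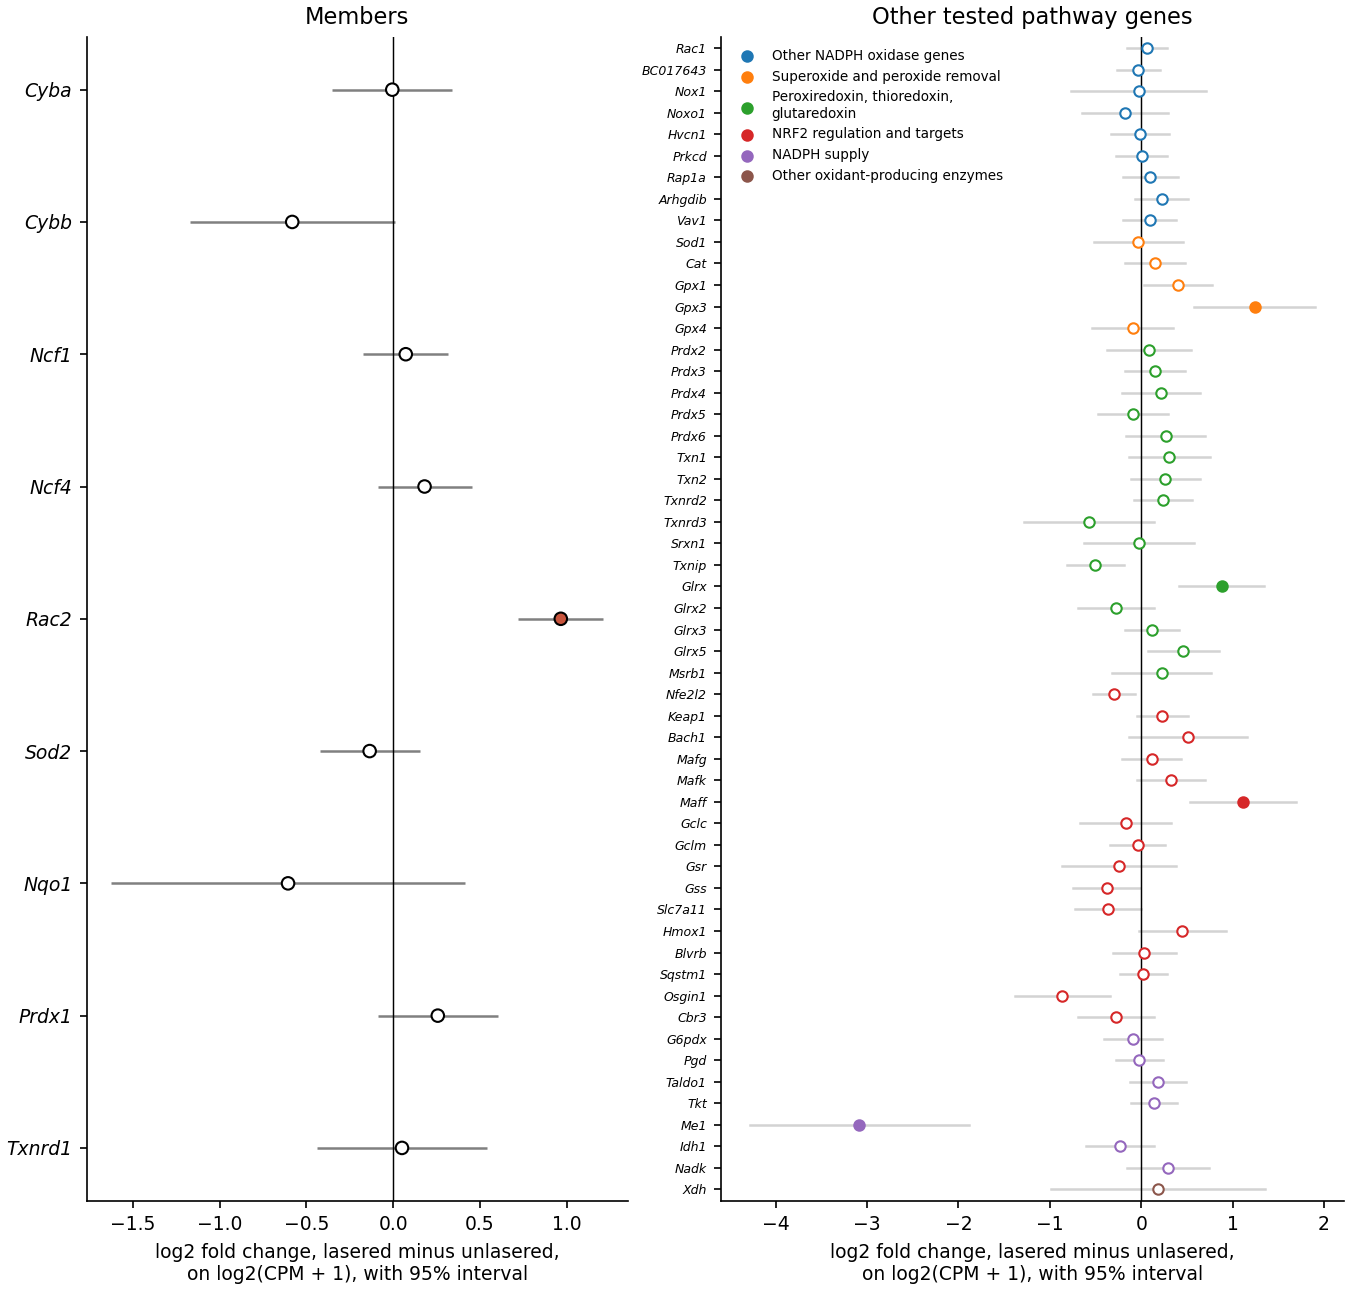
Log2 fold change, lasered minus unlasered on log2(CPM + 1), with its 95% interval for the 9 members (left) and all but 1 of the 55 other pathway genes tested (right, coloured by list), where filled points have an adjusted p under 0.05 in limma. Rac2 at 0.97 is the filled point on the left, and Gpx3, Glrx, Maff and Me1 are filled on the right.

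Levels of different genes were compared per kilobase of exon. In the unlasered group Cyba was highest at 260 CPM per kilobase, followed by Cybb (111), Prdx1 (102), Ncf1 (98.8), Rac2 (78.8) and Ncf4 (58.6). Sod2 (5.99), Txnrd1 (5.98) and Nqo1 (1.22) came last, so the 3 defence genes other than Prdx1 stood well below the oxidase subunits. Cyba lay above the rest in each of the 3 libraries, whereas Cybb, Prdx1 and Ncf1 overlapped as neighbours, as did Sod2 and Txnrd1. In the lasered group Rac2 moved from place 5 to place 2 (154 CPM per kilobase) behind Cyba (259), and above Prdx1 (121), in 4 of 4 libraries. Below them Prdx1, Ncf1 (104), Cybb (76.2) and Ncf4 (66.5) overlapped from neighbour to neighbour, and Txnrd1 (6.15) overlapped with Sod2 (5.42), above Nqo1 (0.63). With the length of the longest transcript instead, 4 members in the unlasered and 2 in the lasered group took another place, which for Rac2 meant place 6 and place 3. When Prdx1 was summed with its near-identical copies over the length of Prdx1, chosen after the values were seen, it stood at 145 to 214 CPM per kilobase in the unlasered and 181 to 238 in the lasered libraries. It then took place 2 in both groups, above Rac2 in every library and above Cyba in 1 lasered library, and Rac2 took place 5 and place 3.

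Across 6 lists of other redox genes, 55 of 68 genes were tested, 3 were higher and 1 was lower in the lasered group, and 10 had an unadjusted p under 0.05. That is 4 called of 55 beside the 6.93% called among all tested genes. The 10 of 55 at an unadjusted p under 0.05 in limma stand beside 3963 of all 17496 tested genes. The median log2 fold change of the 55 was 0.06.

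Among 8 genes that remove superoxide and peroxide, 5 were tested and 1 was called, Gpx3, a secreted glutathione peroxidase. Gpx3 was at 25.1, 27.5 and 20.2 CPM in the unlasered and at 90.8, 72.0, 49.7 and 35.2 CPM in the lasered libraries, without overlap. It rose by 1.24 on the log2 scale (SE 0.29; adjusted p = 0.0406, limma with Benjamini-Hochberg adjustment). The call was lost without unlasered replicate 1, 2 or 3 or lasered replicate 1, 2 or 3, with adjusted p from 0.0696 to 0.111 in limma.

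Of 16 peroxiredoxin, thioredoxin and glutaredoxin genes, all 16 were tested and 1 was called. This was Glrx, a glutaredoxin that frees proteins of bound glutathione, at 26.6, 18.7 and 14.7 CPM in the unlasered and at 37.0, 39.4, 39.7 and 30.9 CPM in the lasered libraries. Every lasered library was above every unlasered one, and the log2 fold change was 0.88 (SE 0.21; adjusted p = 0.0385, limma with Benjamini-Hochberg adjustment). Without unlasered replicate 2 or 3 or any 1 lasered library it missed the threshold, with adjusted p from 0.0506 to 0.106 in limma. Txnip, an inhibitor of thioredoxin named after its values were seen, was at 395 to 514 CPM in the unlasered and 279 to 358 CPM in the lasered libraries. It did not pass the test (log2 fold change -0.50, adjusted p = 0.0655, limma with Benjamini-Hochberg adjustment). Txnip shares 443 bases with the antisense gene Gm15441 (log2 fold change -0.52), and reads of the shared part cannot be told apart. Glrx5, likewise named afterwards and not called, went the other way (0.46). The median log2 fold change of the 16 genes was 0.18.

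In the NRF2 list, 16 of 16 genes were tested and 1 was called. Maff, a small MAF protein that can pair with NRF2 on DNA, was at 1.32, 0.44 and 0.47 CPM in the unlasered and at 2.72, 3.94, 2.40 and 1.94 CPM in the lasered libraries. These low levels did not overlap, and Maff rose by 1.11 on the log2 scale (SE 0.26; adjusted p = 0.0374, limma with Benjamini-Hochberg adjustment), a size that depended on the pseudocount, with 1.86 at 0.1 CPM and 1.92 to 2.14 with edgeR, DESeq2 and limma voom. It missed the threshold without unlasered replicate 2 or 3 or lasered replicate 1, 2 or 3, with adjusted p from 0.0742 to 0.0986 in limma. Osgin1, an NRF2 target named after its values were seen, was at 58.5 to 88.4 and 30.1 to 54.4 CPM (log2 fold change -0.86, adjusted p = 0.0573, limma with Benjamini-Hochberg adjustment). Nfe2l2, the gene of NRF2 itself and likewise named afterwards, was at 574 to 614 and 453 to 515 CPM (log2 fold change -0.30). Uncalled genes of the list also went the other way, among them Bach1 (0.51) and Hmox1 (0.45), likewise named afterwards. The median log2 fold change of the 16 genes was -0.01.

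Of 7 genes that supply NADPH, 7 were tested and 1 was lower, Me1, the cytosolic malic enzyme. Me1 was at 6.90, 35.5 and 16.6 CPM in the unlasered and at 2.85, 0.51, 1.33 and 0.24 CPM in the lasered libraries. It fell by 3.08 on the log2 scale (SE 0.53; adjusted p = 0.0152, limma with Benjamini-Hochberg adjustment), and without lasered replicate 2 its adjusted p was 0.0532. At a pseudocount of 0.1 CPM the log2 fold change was -4.05, and with edgeR, DESeq2 and limma voom it was -4.00 to -4.26. The summed rod markers put the 7 libraries in the same order as Me1, with unlasered replicate 2 highest and lasered replicate 4 lowest, and their part in the level of Me1 was not tested.

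Of 4 other enzymes that can produce oxidants, 1 was tested and 0 were called. Xdh, xanthine dehydrogenase, was at 45.8, 16.8 and 54.5 CPM in the unlasered and at 66.6, 68.4, 28.7 and 18.8 CPM in the lasered libraries, with a log2 fold change of 0.18 (95% interval -0.98 to 1.35). Its lasered libraries split into replicates 1 and 2 against 3 and 4, as those of Cybb did. Aox1, aldehyde oxidase, reached at most 1.31 CPM and was not tested.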

How the data were processed

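Sorted rMG were sequenced on an Illumina HiSeq after SMARTer amplification and Nextera XT library preparation, which do not mark strand. The authors counted reads per gene with HTSeq after FastQC, cutadapt trimming, removal of duplicate reads with FastUniq and Bowtie2 alignment to GRCm38, with Ensembl annotation release 90 per the methods. Tool versions were not given in the sources used here. The deposited table is headed TPM, but its values are CPM: all libraries sum to the same total and 100% of values were whole multiples of 1 read (tolerance 0.1 read), from which depth was recovered. The floor of 3 reads covers counting error only.

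Values were tested as log2(CPM + 1) with limma 3.58.1 in R 4.3.3 (trend and robust empirical Bayes, two-sided, Benjamini-Hochberg adjustment) over the genes that reached 1 CPM in 3 or more of the 7 libraries. Alternatives were a pseudocount of 0.1, no filter, a mean of at least 10 CPM, median-of-ratios scaling, a replicate block, leaving out each library, limma voom, and edgeR 4.0.16 and DESeq2 1.42.0 on the recovered reads. The study's methods name DESeq2, which was an alternative here since the deposited values are not counts. The script was tested on simulated data. P-values measure the spread between these pooled libraries. Exonic lengths came from GENCODE M21, and promoter sequences from RefSeq. The members and all lists were chosen with earlier results of these data known. Named were all 9 members, every called gene of a pathway list, and in lists without a call the 2 highest by mean CPM, besides those said to be chosen afterwards. Marker lists also covered lymphocytes (summed 9.29 to 25.0 CPM in the unlasered and 20.5 to 23.6 CPM in the lasered group), Müller glia (52384 to 77375 and 29501 to 72695 CPM, nearly all from Apoe, which microglia also express, and 672 to 946 and 282 to 597 CPM without it, with Dkk3 called lower), retinal pigment epithelium (20.3 to 36.5 and 16.6 to 26.3 CPM), endothelium (13.0 to 49.8 and 10.9 to 24.4 CPM) and red blood cells (at most 1.42 CPM apart from 84.8 CPM in lasered replicate 1). Protein sequences were not analysed here, and 1 gene of the pathway lists is counted but not reported here.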

Additional observations from a re-analysis of the deposited data

How the results depend on the processing

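Rac2 kept its direction under all alternatives, from 0.92 to 1.05 on the log2 scale, and its call under all but the replicate block, where its log2 fold change was 1.00 with an adjusted p of 0.0769 in limma and 0 members were called higher. The replicate block left 2 of all tested genes higher and 1 lower, and 0 pathway genes called in either direction. The labels give same-numbered libraries a shared number and no batch, and their deviations from the group means correlated at -0.183 to -0.0234. Over 3 such pairs these values cannot show whether the libraries were paired. The block gave Rac2 the same log2 fold change as leaving out lasered replicate 4, which has no same-numbered unlasered library. Without that library and without the block the adjusted p of Rac2 was 0.0103 in limma. Of all tested genes, no filter on low values left 212 higher and 173 lower, a mean of at least 10 CPM 160 lower, and DESeq2 1177 higher and 1141 lower. Leaving out 1 library gave 150 to 815 higher and 114 to 433 lower. For the pathway genes, no filter left 0 higher, DESeq2 3 lower, and leaving out 1 library 0 to 2 higher and 0 to 2 lower.

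Cyba turned positive under median-of-ratios scaling (0.077), edgeR (0.00162), DESeq2 (0.00122) and limma voom (0.00837), and without 1 library it ranged from -0.12 to 0.0901. Without 1 library Txnrd1 ranged from -0.17 to 0.19, Vav1 from -0.043 to 0.18 and Xdh from -0.32 to 0.53, and the cause was not tested. Median-of-ratios scaling moved the median of all tested genes by 0.07. Nqo1 could not be tested at a mean of at least 10 CPM, and its 6 reads in each of 2 lasered libraries limit its value. With 3 and 4 libraries, changes cannot be bounded more closely than by the intervals given. For genes that were not called, a change within the interval may have gone undetected.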
